A study of Mus musculus with 30 samples.

Results

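Loss of SRCAP for 2 h was examined by setting 2 nuclear RNA libraries of SYAT cells treated with indole-3-acetic acid (IAA, the auxin ligand) for 2 h against 2 libraries of control SYAT cells, so 4 of the 30 libraries of the series enter the comparison. They were selected by their labels alone, cell line SYAT with the treatment Control or IAA 500uM 2h. SYAT is a clonal derivative of CGR8 mouse embryonic stem cells in which both Srcap alleles carry YPet and an auxin-inducible degron at the C-terminal part of SRCAP and which express the auxin receptor OsTir1 from a lentiviral EF1a promoter. The line was sorted for cells that lost YPet fluorescence on IAA, and it therefore represents responsive cells of one knock-in clone. Control cells were kept in auxinole, an inhibitor of the receptor, IAA cells received 500 µM IAA, and both groups had been moved to serum and LIF medium without kinase inhibitors before the experiment. The groups therefore differ in IAA and in auxinole. IAA in the parental CGR8 cells, which have no degron, was measured in separate libraries after 4 h. Further separate libraries came from SYAT cells with a transgene for wild-type (wtSRCAP) or catalytically dead SRCAP (cdSRCAP) induced by doxycycline for 24 h, with or without 4 h of IAA, and from SYAT cells sorted in early (EG1) or late G1 (LG1) with or without 1 h of IAA.

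SRCAP is the ATPase of a chromatin remodelling complex that exchanges canonical H2A for the histone variant H2A.Z. H2A.Z marks the nucleosomes beside active promoters and also poised promoters of developmental genes in embryonic stem cells. Degradation of the protein through the degron removes SRCAP without touching its gene, so early RNA differences are read in nuclear RNA, where newly made transcripts form a larger share than in whole cells. Nuclear RNA was counted by the authors per gene in an exon and an intron column.

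The 4 libraries held 18540456 to 22873893 exon counts and 19136217 to 23398456 intron counts. Mitochondrial transcripts took 1.97 to 2.35% of exon counts in these libraries. A ribosomal-RNA-like gene, CT010467.1, took 1.27 to 1.54% in control and 0.741 to 0.955% after 2 h of IAA, and its part in the results was not tested. All 9 of 9 embryonic stem cell markers were detected in each library, with a summed level of 1515 and 1780 CPM per exonic kilobase in control and 1645 and 1901 after IAA. The summed level of 9 trophoblast markers was 77.7 and 45.7 in control and 79.4 and 60.5 after IAA, and that of 7 neural markers was 76.1 and 51.0 against 75.8 and 57.8, with 1 of 8 and 1 of 6 tested markers higher at an unadjusted p under 0.05, against 1.37% of all genes. For 9 primitive endoderm markers the sums were 19.6 and 14.4 against 20.6 and 16.4, and for 10 fibroblast markers 65.3 and 78.3 against 72.0 and 80.6, with Postn and S100a4 at 0 in every library. In bulk RNA, fewer cells of a type and less RNA per cell cannot be told apart.

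The intron column of the time course is not a pure intron count. Genes with a single annotated exon have no intron, yet 692 of 1302 of them (53.1%), all above a floor of 20 exon counts, had intron counts, against 1 of 1862 in the CGR8 table. The median ratio of intron to exon counts per gene was 1.12 to 1.13 in the 4 libraries. Values of both columns are therefore given below as related and not as independent measurements, and intron values are not set beside those of other tables. For 121 of 14719 genes the intron column was 0 in both libraries of one group only. In 35 of these the other group averaged at least 50 normalised counts, and the exon column of these 35 differed by a median of 0.225 on the log2 scale. R3hcc1l, whose protein carries an R3H domain, is an example with 150.2 and 165 in the control libraries and 0 and 0 after IAA in the intron column, which is at least 52.4-fold lower against a floor of 3 counts per library, but 444 and 439.7 in the control libraries and 222 and 263 after IAA in the exon column. Gm13067, a predicted gene, had 0 and 0 intron counts in control and 201 and 178 after IAA, at least 65.7-fold higher, whereas its exon log2 fold change was 0.05.

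Srcap itself, transcribed from chromosome 7, had 815 and 936 in the control libraries and 941 and 976 after IAA in normalised exon counts, which are counts scaled to the effective library size. Its log2 fold change was 0.13 ± 0.17 (SE, n = 2 against 2, adjusted p = 1.0 by the edgeR quasi-likelihood test), so its RNA after 2 h was not distinguishable from control, and RNA is no check of degradation of the protein. Among 15 genes of the SRCAP complex and H2A.Z, Dmap1, a subunit shared with the TIP60 complex, was the 1 with an unadjusted p under 0.05 (6.67% against 2.55% of all genes on the lower side), with 556 and 575 in the control libraries and 408 and 411 after IAA and a log2 fold change of -0.47 ± 0.18.

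No gene passed an adjusted p of 0.05 with a log2 fold change beyond 0.5 in the edgeR test, in either direction or column. In the exon column 19205 genes were tested and the lowest adjusted p was 0.619, and in the intron column 14719 genes were tested with a lowest adjusted p of 0.437. At an unadjusted p under 0.05, 489 genes were lower and 263 higher in exons (2.55% and 1.37% of those tested), and 484 were lower and 271 higher in the intron column (3.29% and 1.84%). These counts depend on the libraries in the fit. Without any one of the 4 libraries they were 245 to 259 lower and 133 to 184 higher in exons, and 199 to 251 lower and 126 to 183 higher in the intron column. Without the second 6 h library (IAA6h 2), which enters the spread and stands apart with 0.529% mitochondrial counts and 2.73% CT010467.1, they were 910 and 464 in exons and 729 and 433 in the intron column. Of 13543 genes tested in both columns, 10286 had a mean of at least 50 normalised counts in each. Among these, both columns had an unadjusted p under 0.05 in the same direction for 266 lower and 106 higher genes. DESeq2 called 4 genes lower and 0 higher in exons (0.0246% and 0% of 16285 with an adjusted p). In the intron column it called 10 lower and 5 higher (0.0693% and 0.0347% of 14426). Values below are normalised counts of each library followed by edgeR log2 fold changes of IAA minus control with their standard errors, and a DESeq2 call needs an adjusted p under 0.05 and a shrunken log2 fold change beyond 0.5.

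**Figure D1:**
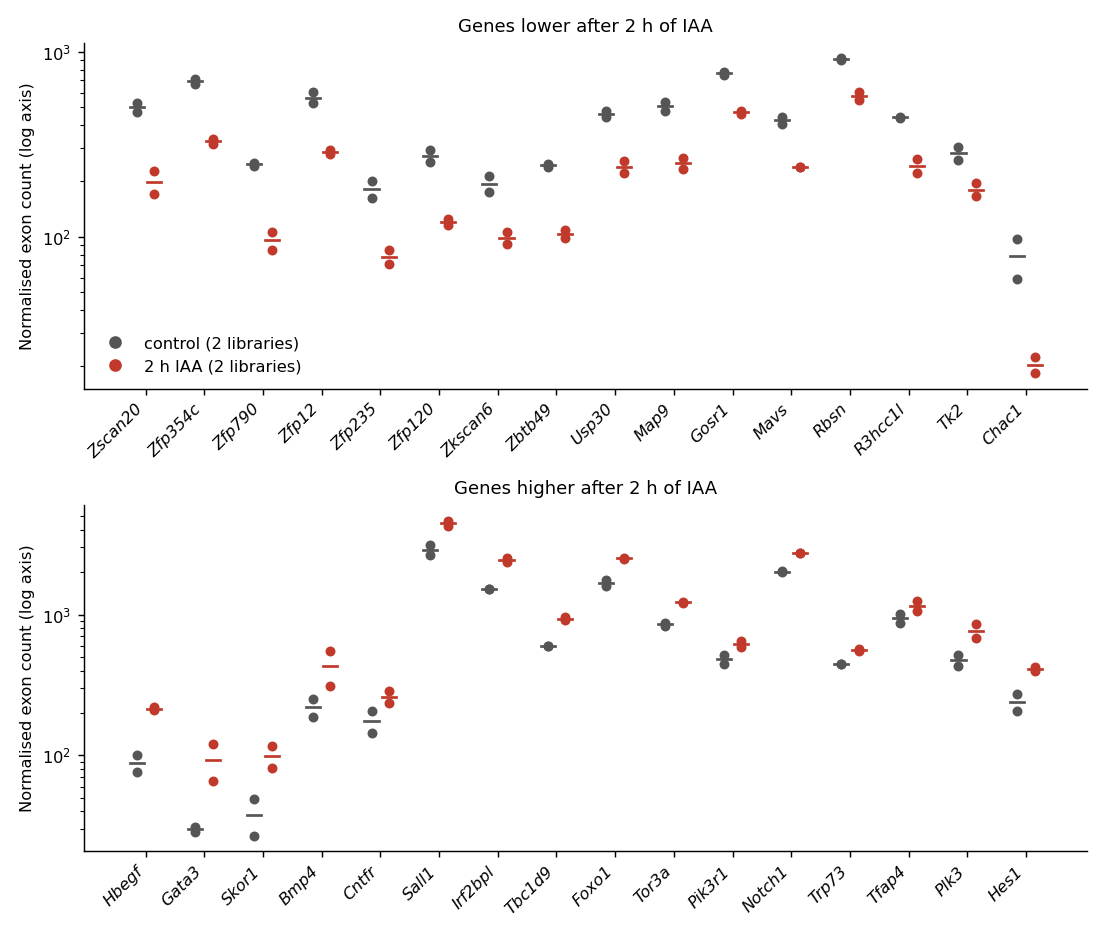
Normalised exon counts (log axis) of 16 genes lower and 16 genes higher after 2 h of IAA in SYAT cells, with one point per library, 2 control (grey) and 2 IAA (red), and a bar at each group's mean. Control and IAA libraries do not overlap for any of the 32 genes, a rule that chose part of them. Over all genes tested in exons, both IAA libraries lay below both controls for 21% and above for 18.6%.

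The 4 genes that DESeq2 called lower in exons all encode zinc finger proteins, and all 4 were called in the intron column as well. Zfp790 and Zfp12 belong to the numbered Zfp genes, a list made by gene name (Zfp and a number). Many members encode DNA-binding C2H2 zinc finger proteins with a KRAB repressor domain, but the list is not a single protein family. The name leaves out Zfp354c, which also carries a KRAB domain, and Zscan20, which carries a SCAN domain. Promoters of the 3 that the RefSeq table (GRCm38.p6) holds are shown because these genes were lower together, and that of Notch1 is shown as 1 example of a gene higher after IAA. Each runs from 250 bases before to 50 bases after the annotated start, and capitals mark matches to the motifs searched on both strands. The windows are chr4:128610049-128610348 on the minus strand for Zscan20, chr7:29815822-29816121 on the plus strand for Zfp790, chr5:143234913-143235212 on the plus strand for Zfp12 and chr2:26503773-26504072 on the minus strand for Notch1.
Zscan20: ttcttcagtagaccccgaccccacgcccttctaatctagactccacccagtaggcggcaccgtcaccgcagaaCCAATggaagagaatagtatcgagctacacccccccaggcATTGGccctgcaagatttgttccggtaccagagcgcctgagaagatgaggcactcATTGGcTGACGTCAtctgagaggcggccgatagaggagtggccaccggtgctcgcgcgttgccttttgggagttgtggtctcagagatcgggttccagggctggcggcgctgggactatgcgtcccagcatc
Zfp790: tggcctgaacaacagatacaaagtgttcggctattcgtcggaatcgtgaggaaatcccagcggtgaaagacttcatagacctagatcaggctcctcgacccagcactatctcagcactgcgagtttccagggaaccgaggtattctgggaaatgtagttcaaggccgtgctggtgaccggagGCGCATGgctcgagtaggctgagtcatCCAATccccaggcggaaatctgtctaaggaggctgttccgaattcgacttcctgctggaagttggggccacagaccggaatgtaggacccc
Zfp12: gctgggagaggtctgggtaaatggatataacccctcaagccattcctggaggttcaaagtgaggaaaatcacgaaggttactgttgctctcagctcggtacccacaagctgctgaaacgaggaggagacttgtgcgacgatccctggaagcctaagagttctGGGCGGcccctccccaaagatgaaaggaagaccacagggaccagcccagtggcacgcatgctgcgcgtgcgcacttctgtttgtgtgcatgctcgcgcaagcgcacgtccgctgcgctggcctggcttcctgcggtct
Notch1: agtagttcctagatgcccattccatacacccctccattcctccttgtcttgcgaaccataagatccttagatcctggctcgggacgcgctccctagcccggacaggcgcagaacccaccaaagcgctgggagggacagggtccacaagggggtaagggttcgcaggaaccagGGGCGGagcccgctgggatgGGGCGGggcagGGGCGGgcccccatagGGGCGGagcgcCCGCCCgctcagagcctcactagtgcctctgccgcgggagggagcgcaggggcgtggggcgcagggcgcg
The motifs, with their share of all 32851 promoters of the table, were TATAAA (13.6%), CCAAT (37.4%), GGGCGG (35.7%), CACGTG (7.15%), CAGCTG (16.3%), TGACGT (7.51%), CCGGAAG (8.86%), CGCGAGA (2.56%) and GCGCATG (3.91%). TGACGT matches on both strands overlap where its palindrome is present, as in Zscan20. Zscan20 held 3 CCAAT and 2 overlapping TGACGT matches, Zfp790 1 CCAAT and 1 GCGCATG, Zfp12 1 GGGCGG, and Notch1 5 GGGCGG. A match describes letters in this window and was not tested as a binding site.

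Zscan20 on chromosome 4 had 473 and 527 in the control libraries and 169 and 226 after IAA, a log2 fold change of -1.33 ± 0.21 (edgeR adjusted p = 0.619, DESeq2 adjusted p = 0.001). Zfp790 on chromosome 7 had 250.3 and 241 in the control libraries and 84.7 and 106 after IAA, a log2 fold change of -1.36 ± 0.22 (edgeR adjusted p = 0.619, DESeq2 adjusted p = 0.0048). Zfp354c on chromosome 11 had 671 and 713 in the control libraries and 339 and 315 after IAA, a log2 fold change of -1.08 ± 0.16 (edgeR adjusted p = 0.619, DESeq2 adjusted p = 0.001). In each of these 3 genes the higher IAA library stood below the lower control library, as was the case for 21% of all genes tested in exons. Zfp12 on chromosome 5 had 602 and 527 in the control libraries and 279.6 and 295 after IAA, a log2 fold change of -0.97 ± 0.17 (edgeR adjusted p = 0.619, DESeq2 adjusted p = 0.025). Its shrunken DESeq2 log2 fold change of -0.51 lay just past the threshold of 0.5 that a call also required, and it was -0.50 after filterByExpr and -0.49 with the replicate number in the model, so the call was lost there although the DESeq2 adjusted p was lower (0.011 and 0.0069).

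A further 3 zinc finger genes were among the DESeq2 calls of the intron column. Zfp120 had 396 and 475 in the control libraries and 199.8 and 202 after IAA in that column (log2 fold change -1.12 ± 0.23) and 252 and 294 in the control libraries and 116 and 124 after IAA in exons. Zkscan6, with a KRAB and a SCAN domain, had 289 and 294 in the control libraries and 122 and 155 after IAA in the intron column, a log2 fold change of -1.07 ± 0.23. Zbtb49, a zinc finger protein with a BTB domain, had 443 and 417 in the control libraries and 209 and 178 after IAA, a log2 fold change of -1.15 ± 0.25. None of the 3 overlapped between the groups, and 23.5% of all genes tested in the intron column were likewise lower without overlap. All 3 lost the call with the replicate number in the model, where their shrunken log2 fold changes were -0.46, -0.48 and -0.49, as did Zfp12 in this column. Zfp235 was not called by DESeq2 in exons (adjusted p = 0.15), although its log2 fold change was -1.22 ± 0.26 with 162 and 201 in the control libraries and 71.3 and 84.6 after IAA.

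As a group, 342 of 374 numbered Zfp genes were tested in exons and 78 were lower at an unadjusted p under 0.05, 22.8% against 2.55% of all genes tested, while 6 were higher, 1.75% against 1.37%. The median log2 fold change of the list was -0.25, against 0.00 for all genes, and 254 of the 342 members (74.3%) were below 0. In the intron column 60 of 285 were lower (21.1% against 3.29%), with a median of -0.25. With Zscan, Zkscan and Zbtb genes included, zinc finger genes made up 18.2% of the genes lower in exons at an unadjusted p under 0.05, 3.44% of those higher, and 2.12% of all genes tested. No member passed edgeR's adjusted threshold. This list and the other gene lists were chosen with earlier results of these data known. Their shares beside those of all genes are therefore descriptive and give no independent support. With one of the 4 libraries left out, 51 members were lower without control 1, 52 without control 2, 53 without IAA2h 1 and 45 without IAA2h 2 (13% to 15.3%, against 1.2% to 1.28% of all genes), and without IAA6h 2, 109 of 347 (31.4% against 4.43%).

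Log2 fold changes of the 78 lower Zfp genes ran from -1.59 to -0.32 with a median of -0.86, values that chose them in part. Over the whole list, both IAA libraries lay below both control libraries for 177 of 342 members (51.8%), against 21% of all genes tested. Of the 78, 68 were tested in the intron column and 67 were below 0 there, against 48.6% of all genes tested in it. That column comes from the same libraries and holds exon reads too, so its sign largely follows from the choice in exons. They were mostly of moderate level. Among members with a control mean of 50 to 200 normalised counts, 42 of 104 were lower, compared with 25 of 98 between 200 and 500, 7 of 112 above 500 and 4 of 28 below 50. The corresponding shares over all genes tested were 3.65%, 5.45%, 2.21% and 1.09%. On chromosome 7, the chromosome with most tested members, 22 of 87 were lower, and on chromosome 17, 9 of 41. Chromosomes 13, 5 and 18 had 9 of 27, 6 of 16 and 0 of 10, beside 22.8% over the whole list. The share over all genes of each chromosome was not counted. Promoters were matched for 68 of the 78 genes and 213 of the 264 other tested members. Their median GC content was 54.2% and 54.7% and their median number of CpGs was 14 in both, CCGGAAG occurred in 25% and 19.7%, and GGGCGG in 36.8% and 48.8%. These shares were not tested.

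Outside the zinc finger genes, DESeq2 called 3 genes lower in the intron column. Usp30, the deubiquitinase of the outer mitochondrial membrane that opposes mitophagy, had 441 and 476 in the control libraries and 219 and 256 after IAA, a log2 fold change of -0.94 ± 0.17 in exons (edgeR adjusted p = 0.619) and was called by DESeq2 in the intron column (adjusted p = 0.00054). Its locus overlaps Alkbh2 and Svop on the other strand. Map9, a microtubule-associated protein of the spindle, had 479.9 and 535 in the control libraries and 267 and 233 after IAA, a log2 fold change of -1.02 ± 0.20 in exons and -1.36 ± 0.22 in the intron column (DESeq2 adjusted p = 0.00014). Tk2, the mitochondrial thymidine kinase, was called in the intron column with 523 and 491 in the control libraries and 276 and 248 after IAA (log2 fold change -0.95 ± 0.19), and in exons it had 305 and 258 in the control libraries and 194 and 165 after IAA. In these 3 genes too the groups did not overlap, against 21% of all genes in exons and 23.5% in the intron column on the lower side. With the replicate number in the model Usp30 and Map9 were still called in the intron column, and Tk2 was not (shrunken log2 fold change -0.46).

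Gosr1, a SNARE of the Golgi, had 774 and 749 in the control libraries and 460.1 and 479.8 after IAA, a log2 fold change of -0.70 ± 0.14 (edgeR adjusted p = 0.772). Rbsn, a Rab effector of early endosomes, had 918 and 903 in the control libraries and 606 and 546 after IAA, a log2 fold change of -0.66 ± 0.14 (edgeR adjusted p = 0.772). Mavs, the mitochondrial adaptor of cytosolic RNA sensing, had 443 and 409 in the control libraries and 237 and 236 after IAA, a log2 fold change of -0.84 ± 0.18 (edgeR adjusted p = 0.772). For Gosr1, Rbsn and Mavs the IAA libraries lay close together and below both controls, and edgeR adjusted p-values were 0.772 for each. Both IAA libraries lay below both controls for 21% of all genes tested in exons. Mtf1, the zinc-sensing transcription factor of the metallothionein genes, had 565 and 568 in the control libraries and 343 and 393 after IAA, a log2 fold change of -0.62 ± 0.16 (edgeR adjusted p = 0.841). It was the 1 of 10 zinc and metal response genes with an unadjusted p under 0.05, against 2.55% of all genes on the lower side.

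Cilium genes formed a second list with lower values. Of 71 members tested in exons, 9 (12.7%) were lower at an unadjusted p under 0.05 and 0 higher, against 2.55% and 1.37% of all genes, the median log2 fold change was -0.20 and 81.7% of members were below 0. Without one of the 4 libraries 4 to 6 were lower, 4 without control 2 or without IAA2h 1, 5 without control 1 and 6 without IAA2h 2, against 1.2% to 1.28% of all genes. In the intron column 8 of 56 (14.3% against 3.29%) were lower and the median was -0.26. Kif3b, a motor subunit of intraflagellar transport, had 586 and 562 in the control libraries and 381 and 303 after IAA, a log2 fold change of -0.75 ± 0.19 (edgeR adjusted p = 0.841). Ttc30a1, a subunit of the intraflagellar transport complex, had 173 and 193 in the control libraries and 101 and 92.5 after IAA, a log2 fold change of -0.92 ± 0.24 (edgeR adjusted p = 0.877). Tctn3, of the ciliary transition zone, had 190.3 and 157 in the control libraries and 96.9 and 96 after IAA, and Ttc8, a subunit of the BBSome, had 128 and 98.8 in the control libraries and 57.9 and 56.7 after IAA. All 4 genes were lower in both IAA libraries than in either control library, as were 21% of all genes tested in exons.

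**Figure D2:**
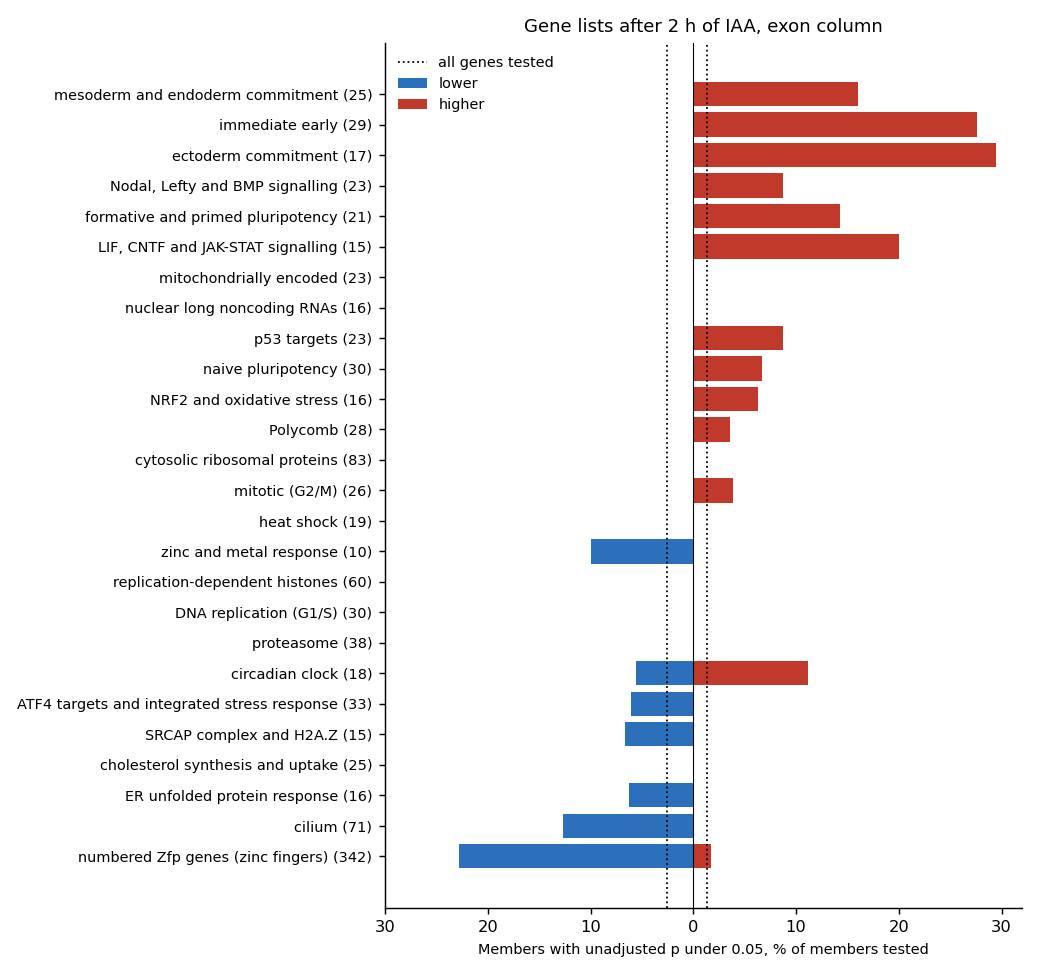
Share of the tested members of each gene list with an unadjusted edgeR p under 0.05 in exons after 2 h of IAA, in %, with lower genes to the left (blue) and higher genes to the right (red), lists of at least 10 tested members (number in parentheses) ordered by median log2 fold change. Dotted lines mark all genes tested, 2.55% lower and 1.37% higher, and the numbered Zfp list reaches 22.8% on the lower side.

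The 5 genes that DESeq2 called higher in the intron column were Hbegf, Notch1, Pik3r1, Tfap4 and Tor3a. Hbegf, which encodes a ligand of the EGF receptor, had 101 and 76 in the control libraries and 211 and 219 after IAA, a log2 fold change of 1.28 ± 0.22 in exons (edgeR adjusted p = 0.619) and 1.32 ± 0.23 in the intron column, where DESeq2 called it (adjusted p = 0.0015). Its shrunken log2 fold change of 0.50 was at the threshold, and the call was lost after filterByExpr and with the replicate number in the model. Notch1, the Notch receptor, had 1413 and 1458 in the control libraries and 2342 and 2389.6 after IAA in the intron column, a log2 fold change of 0.72 ± 0.14 (DESeq2 adjusted p = 0.0079), and 0.45 ± 0.14 in exons. Pik3r1, the regulatory subunit of phosphoinositide 3-kinase, had 257 and 238 in the control libraries and 564 and 504 after IAA in the intron column and 517 and 442 in the control libraries and 648 and 593 after IAA in exons, log2 fold changes of 1.11 ± 0.17 and 0.37 ± 0.16.

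Tfap4, a basic helix-loop-helix factor, had 723 and 666 in the control libraries and 1117 and 1309.6 after IAA in the intron column, a log2 fold change of 0.81 ± 0.14, but only 0.29 ± 0.15 in exons (edgeR adjusted p = 1.0). Tor3a, a torsin ATPase of the endoplasmic reticulum, had 571 and 618 in the control libraries and 987 and 994 after IAA in the intron column, a log2 fold change of 0.74 ± 0.13, and 0.52 ± 0.13 in exons. Both were DESeq2 calls in the intron column with an adjusted p of 0.00068. With the replicate number in the model Tor3a and Pik3r1 were still called, and Tfap4 and Notch1 were not, with shrunken log2 fold changes of 0.50 and 0.49. Trp73, of the p53 family, had 169 and 203 in the control libraries and 398 and 452 after IAA in the intron column (log2 fold change 1.19 ± 0.22) and 0.33 ± 0.15 in exons. Cntfr, the ligand-binding receptor of ciliary neurotrophic factor, had 231 and 208 in the control libraries and 448 and 435 after IAA in the intron column (log2 fold change 1.01 ± 0.16) and 0.57 ± 0.21 in exons.

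In exons, the genes with the lowest p on the higher side also included Foxo1, a target of insulin signalling, with 1598 and 1751 in the control libraries and 2499 and 2520.2 after IAA (log2 fold change 0.58 ± 0.12). Irf2bpl had 1510.0 and 1524 in the control libraries and 2347 and 2534 after IAA (log2 fold change 0.69 ± 0.14). Sall1, a zinc finger factor of development, had 2637 and 3142 in the control libraries and 4252 and 4625 after IAA (log2 fold change 0.62 ± 0.15). Each of these was higher in both IAA libraries than in either control library, as were 18.6% of all genes tested in exons. Tbc1d9, which carries a Rab GTPase-activating domain, had 599 and 594 in the control libraries and 920.2 and 953 after IAA (log2 fold change 0.65 ± 0.15). Skor1, a corepressor of the Ski family, was of low level with 26.9 and 49 in the control libraries and 81.3 and 116 after IAA (log2 fold change 1.37 ± 0.33).

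Mesoderm and endoderm commitment genes leaned to higher values. Of 25 tested in exons, 4 were higher at an unadjusted p under 0.05 (16% against 1.37%), 0 were lower, all 25 had a log2 fold change above 0 and the median was 0.43. Gata3, a GATA transcription factor, had 31 and 28.7 in the control libraries and 65.7 and 120.4 after IAA, a log2 fold change of 1.65 ± 0.37 (edgeR adjusted p = 0.804). Both IAA libraries were above both controls, as for 18.6% of all genes tested in exons, but they differed from each other. Bmp4, the signalling ligand of mesoderm induction, had 187 and 252 in the control libraries and 313 and 548 after IAA (0.97 ± 0.34, edgeR adjusted p = 1.0), Meis2 had 49.6 and 77.7 in the control libraries and 85.8 and 143 after IAA (edgeR adjusted p = 1.0), and Nodal had 1402 and 1408 in the control libraries and 1797 and 1703 after IAA (edgeR adjusted p = 1.0). The median of this list depended on control replicate 1, without which it was 0.77. The median was 0.31 without control 2, 0.37 without IAA2h 1 and 0.51 without IAA2h 2. The count of 4 was lower without control 1 or IAA2h 2, and the share over all genes fell in each of these fits too. Of the ectoderm commitment list 5 of 17 were higher (29.4% against 1.37%), with a median of 0.28. With 1 of the 4 libraries left out the median was 0.21 to 0.36. The count was lower in each of these fits, as was the share over all genes. Among the 5 was Hes1, a repressor downstream of Notch, with 274 and 208 in the control libraries and 426 and 394 after IAA (log2 fold change 0.77 ± 0.21). Irx3, a homeobox gene, had 32.1 and 27 in the control libraries and 65.7 and 68 after IAA (log2 fold change 1.18 ± 0.32).

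Immediate early genes and negative regulators of ERK signalling had 8 of 29 members higher (27.6% against 1.37%) and 0 lower, with a median of 0.30, or 0.18 without control replicate 2. The median was 0.38 without control 1, 0.21 without IAA2h 1 and 0.36 without IAA2h 2. The count of 8 was lower with any one of the 4 libraries left out, as was the share over all genes. Egr3 had 45.5 and 34.6 in the control libraries and 96.9 and 84.6 after IAA, a log2 fold change of 1.18 ± 0.29 (edgeR adjusted p = 0.838), and Fos had 97.2 and 99.6 in the control libraries and 182 and 159.6 after IAA, a log2 fold change of 0.79 ± 0.27 (edgeR adjusted p = 1.0). Dusp5, the nuclear ERK phosphatase, had 238 and 197 in the control libraries and 351 and 325 after IAA (log2 fold change 0.64 ± 0.19). Spry4, a feedback inhibitor of receptor tyrosine kinase signalling, had 4936 and 4849.8 in the control libraries and 6327 and 6822 after IAA (log2 fold change 0.43 ± 0.12). In these 4 genes the 2 groups did not overlap, as was the case for 18.6% of all genes on the higher side. Pim1, a kinase gene induced by LIF, had 645 and 585 in the control libraries and 988 and 847 after IAA (log2 fold change 0.58 ± 0.18), and it was 1 of 3 of 15 LIF, CNTF and JAK-STAT genes with an unadjusted p under 0.05 (20% against 1.37%). Plk3, a p53 target kinase, had 433 and 519.9 in the control libraries and 682 and 855 after IAA (log2 fold change 0.69 ± 0.18).

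Of 30 naive pluripotency genes 2 were higher and 0 lower at an unadjusted p under 0.05 (6.67% and 0% against 1.37% and 2.55% of all genes). All 30 log2 fold changes were above 0, with a median of 0.14, while 49.4% of all genes tested were below 0. Both IAA libraries lay above both controls for 7 of the 30 (23.3%), against 18.6% of all genes. The list's level varied between replicates of a group with an SD of 0.25 on the log2 scale, more than the median of 0.14. Prdm14, a repressor that maintains the naive state, had 53.8 and 81 in the control libraries and 91.4 and 156 after IAA (edgeR adjusted p = 1.0). Nanog had 869 and 1496 in the control libraries and 1290.1 and 2118 after IAA, a log2 fold change of 0.53 ± 0.33 (edgeR adjusted p = 1.0), and Zfp42, a naive marker, had 2869 and 5395 in the control libraries and 3368 and 5952 after IAA, so for both genes the second library of each group was the higher one and the groups overlapped. Myc had 1968 and 2040.0 in the control libraries and 2126 and 2422 after IAA (edgeR adjusted p = 1.0), and Trim28, the corepressor that KRAB zinc finger proteins recruit, had a log2 fold change of 0.10 ± 0.28 (edgeR adjusted p = 1.0). Gata6, Meis1 and Lefty2 had log2 fold changes of 0.79 ± 0.46, 0.34 ± 0.26 and 0.40 ± 0.46, with unadjusted p-values above 0.05. Of the 83 ribosomal protein, 38 proteasome, 60 replication-dependent histone, 19 heat shock, 30 DNA replication and 25 cholesterol genes tested in exons, 0 had an unadjusted p under 0.05, against 3.92% of all genes. Both IAA libraries lay above both controls for 42 ribosomal protein genes (50.6%) and below for 0, against 18.6% and 21% of all genes. The share above was 26.3% for proteasome, 31.7% for histone, 31.6% for heat shock, 10% for DNA replication and 4% for cholesterol genes.

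**Figure D3:**
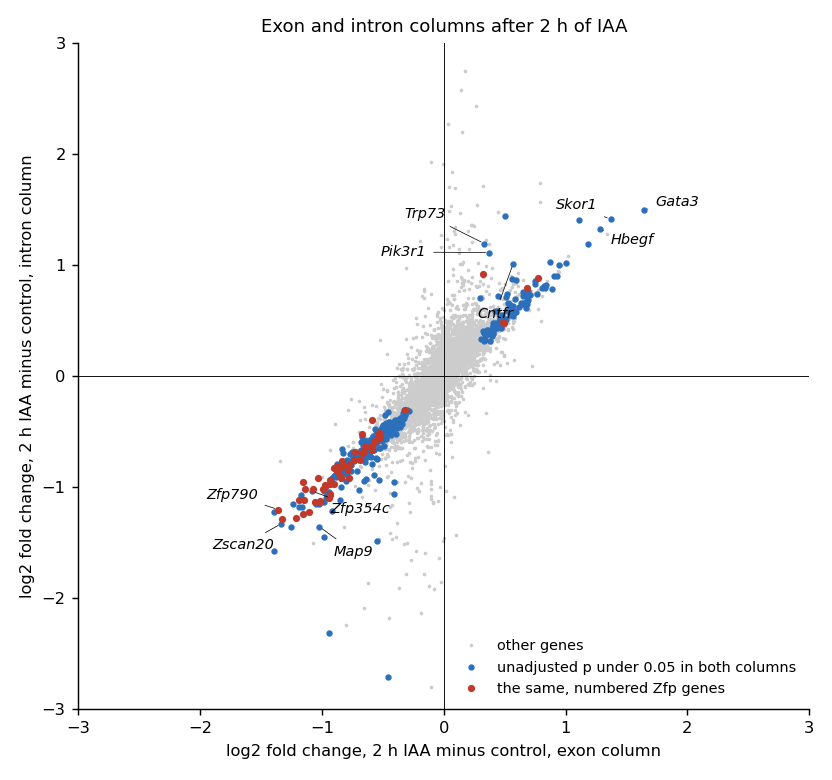
Log2 fold change of 2 h IAA minus control in the exon column (x) and the intron column (y) for 10286 genes with at least 50 normalised counts in both. Genes with an unadjusted edgeR p under 0.05 in the same direction in both columns are blue, and the numbered Zfp genes among them (red) lie mostly at the lower left, with 27 genes outside the axes.

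Chac1, a glutathione-degrading enzyme induced by ATF4, had 97.2 and 59.1 in the control libraries and 22.3 and 18.3 after IAA, a log2 fold change of -1.94 ± 0.40 (edgeR adjusted p = 0.772), and Atf4 had 1972 and 1526 in the control libraries and 1257 and 1257 after IAA (-0.48 ± 0.17, edgeR adjusted p = 1.0). They were the 2 of 33 ATF4 and integrated stress response genes with an unadjusted p under 0.05 (6.06% against 2.55% of all genes on the lower side). Cyp1a1, the classical target of the aryl hydrocarbon receptor, had 794 and 833 in the control libraries and 406 and 572 after IAA (-0.73 ± 0.19, edgeR adjusted p = 0.877). All 3 genes were also lower after 4 h of IAA in CGR8 cells, which carry no degron, with log2 fold changes of -3.04, -1.53 and -1.73, of which Atf4 passed the edgeR threshold (adjusted p = 0.044). For these genes a lower value after IAA was thus also measured where SRCAP carried no degron.

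In CGR8 cells Zscan20 was lower by 0.36 on the log2 scale with an unadjusted p under 0.05 (edgeR adjusted p = 0.543), and Zfp354c, Zfp790 and Zfp12 had 0.28, -0.04 and -0.33.

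The later time points share the 2 control libraries with the 2 h comparison, so their fold changes are not independent of it and are given side by side. Zfp354c had log2 fold changes of -1.08, -0.91, -1.06 and -1.06 at 2, 4, 6 and 8 h, and Zscan20 of -1.33, -1.29, -0.91 and -1.11. Hbegf had 1.28, 1.24, 1.41 and 1.00. Egr3 had 1.18, 0.58, 0.89 and 0.25, and Cntfr had 0.57, 0.94, 1.54 and 1.20. Of the 78 Zfp genes, 64, 62 and 60 were lower at 4, 6 and 8 h at an unadjusted p under 0.05, against 6%, 8.21% and 8.44% of all genes. Of the 25 mesoderm and endoderm genes, 8, 11 and 8 were higher, against 3.09%, 7.93% and 5.13%. Set directly against each other, 6 h and 2 h of IAA gave 0 edgeR calls in exons, with 662 genes lower and 810 higher at 6 h at an unadjusted p under 0.05 (3.45% and 4.22%). In the intron column there were 0 calls, with 381 lower and 302 higher (2.59% and 2.05%). Cntfr was higher at 6 h than at 2 h by 0.97 (edgeR adjusted p = 0.645) and Sall1 lower by 0.49 on the log2 scale (edgeR adjusted p = 0.645). Of 71 cilium genes, 17 were lower at 6 h than at 2 h (23.9% against 3.45%), with a median of -0.37. IAA6h 2 is one of the 2 libraries at 6 h. Without it 605 genes were lower and 324 higher in exons, 17 of 71 cilium genes were lower (23.9% against 2.95%) with a median of -0.34, and the log2 difference was 0.91 for Cntfr and -0.37 for Sall1. The median of the 78 Zfp genes between 6 h and 2 h was -0.04, with 3 lower and 3 higher (3.85% each, against 3.45% and 4.22%). They were chosen by low values in the same 2 h libraries, so this difference is not independent of that choice. The whole numbered Zfp list had a median of -0.18, with 28 of 342 lower and 14 higher (8.19% and 4.09%). Without IAA6h 2 its median was -0.05.

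Separate libraries, normalised in their own tables, gave the same genes' values in other cells. In cells expressing wtSRCAP or the catalytically dead cdSRCAP from a doxycycline-inducible transgene for 24 h, with IAA for 4 h against no IAA, the 78 Zfp genes had median log2 fold changes of -0.78 and -0.77 in exons. Of the 78, 38 and 34 were lower at an unadjusted p under 0.05, against 4.48% and 3.99% of all genes tested in these comparisons. The difference between the 2 lines was not tested. In CGR8 cells after 4 h of IAA their median was 0.08, with 5 lower and 6 higher (6.41% against 4.12%, and 7.69% against 5.04%). The whole numbered Zfp list in CGR8 cells had 76 of 351 higher (21.7%) and 14 lower, a median of 0.17. In SYAT cells sorted in early G1 (EG1) and late G1 (LG1) after 1 h of IAA, the medians of the 78 genes were -0.11 and -0.16, with 1 and 3 lower (against 1.03% and 0.733% of all genes) and 0 higher (against 0.19% and 0.285%). IAA times differ between these libraries and the 2 h comparison, so the values are listed without a test between them.

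**Figure D4:**
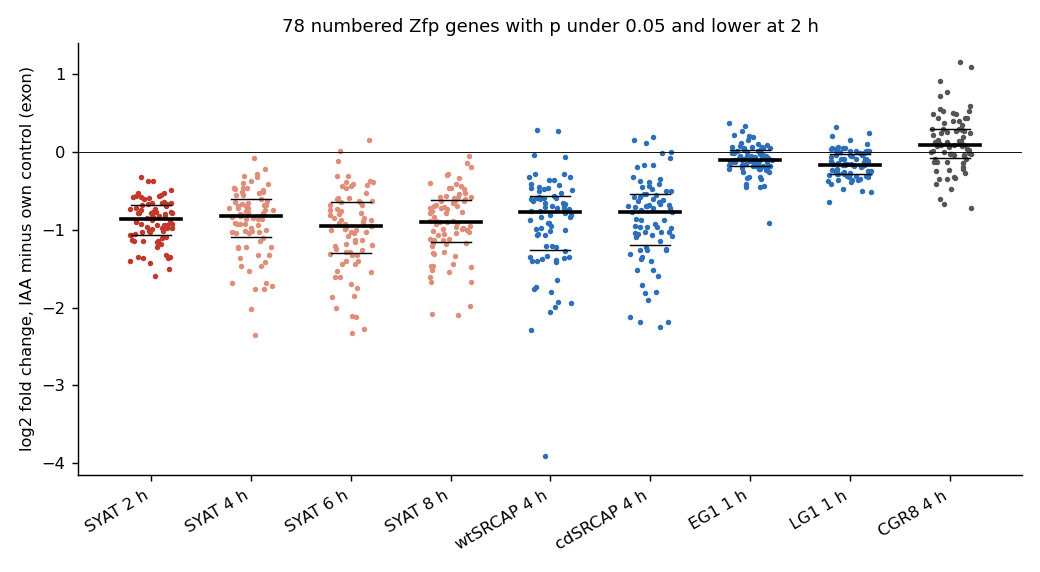
Exon log2 fold change of IAA minus the own control in each comparison (columns) for the 78 numbered Zfp genes chosen as lower at 2 h with an unadjusted p under 0.05 (red), one point per gene, with the median (thick line) and quartiles (thin lines). The SYAT time points share their control libraries, and the medians are -0.86 at 2 h, -0.78 and -0.77 in wtSRCAP and cdSRCAP cells, -0.11 and -0.16 after 1 h in EG1 and LG1, and 0.08 in CGR8 cells.

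Among single genes, Usp30 was lower by 1.31 in wtSRCAP and 1.23 in cdSRCAP cells on the log2 scale and had -0.28 in CGR8 cells (edgeR adjusted p = 0.624). Map9 had -1.01, -1.26 and 0.18 in the same order. Gata3 had 1.32 (edgeR adjusted p = 0.651), 0.74 (edgeR adjusted p = 0.996) and 0.36 (edgeR adjusted p = 0.834). The first 2 genes were thus lower in both transgenic lines, and their CGR8 values were of either sign. Some higher genes also had unadjusted p-values under 0.05 in CGR8 cells, with log2 fold changes of 0.48 for Hbegf, 0.76 for Cntfr and 0.43 for Bmp4. The cilium list had medians of -0.51, -0.44 and 0.03 in wtSRCAP, cdSRCAP and CGR8 cells, with 20, 15 and 5 of 71 lower (28.2%, 21.1% and 7.04% against 4.48%, 3.99% and 4.12%). The mesoderm and endoderm list had 1.02, 0.68 and 0.16, with 8 of 21, 5 of 21 and 4 of 28 higher (38.1%, 23.8% and 14.3% against 2.93%, 1.65% and 5.04%).

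**Figure D5:**
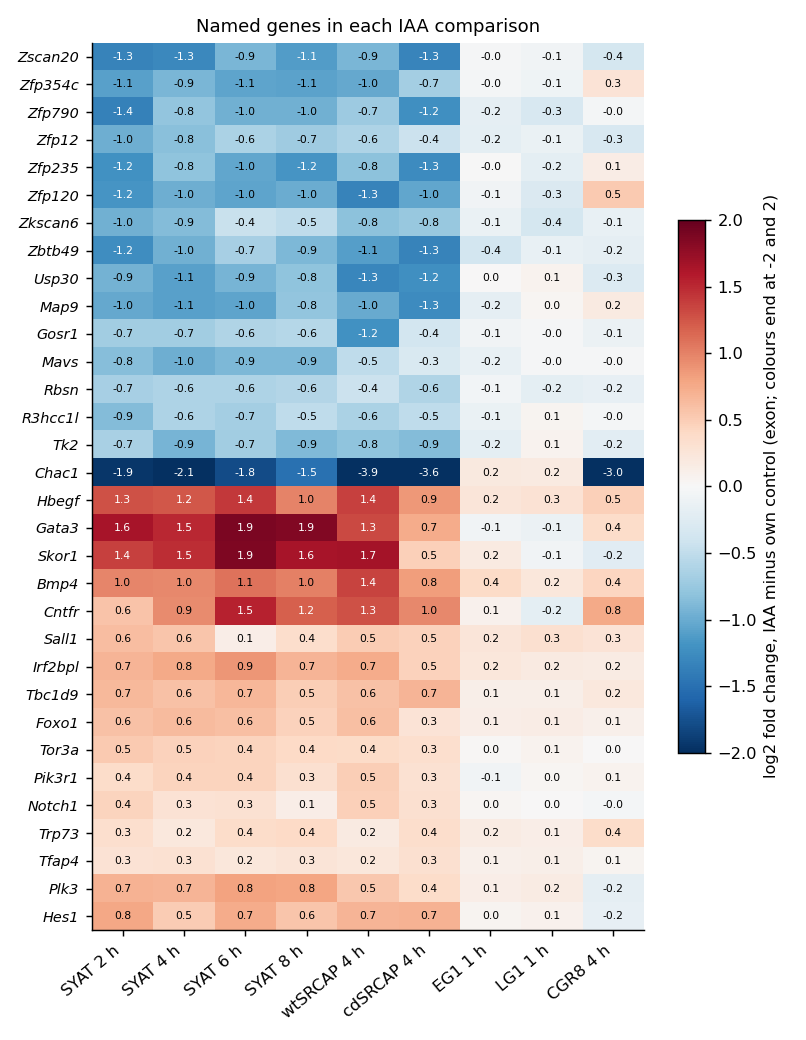
Exon log2 fold change of IAA minus the own control (colour, and the number in each cell) of the 32 genes plotted by library above, for SYAT cells at 2, 4, 6 and 8 h, wtSRCAP and cdSRCAP cells at 4 h, EG1 and LG1 cells at 1 h and CGR8 cells at 4 h. Chac1 is low in CGR8 cells too (-3.04), whereas Zfp790 is at -1.36 at 2 h in SYAT cells and -0.04 in CGR8 cells.

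Precision was set by 2 libraries per group. The replicates differed by more than counting noise (chi-square per degree of freedom of 27.6 in control and 29.5 after IAA in exons), and the median biological coefficient of variation was 0.204 in exons and 0.234 in the intron column. Counts were simulated for this comparison with the real means, library sizes and edgeR's estimated spread of each gene. The same simulated data held 100 genes changed by 1 and 100 changed by 2 on the log2 scale. Many changed genes make the adjusted threshold easier to reach. The recovered numbers therefore may not carry over to the measured libraries, where edgeR called 0. The changed genes were all drawn from those above the median mean count, and recovery at lower counts was not tested. In exons edgeR recovered 65 of 100 genes changed by 1 on the log2 scale and 99 of 100 changed by 2. In the intron column it recovered 24 and 90 of 100. DESeq2 recovered 85 and 99 in exons and 68 and 96 in the intron column, with 17 and 28 calls among genes that had not been changed, against 9 and 3 for edgeR.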

How the data were processed

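Nuclear RNA libraries of SYAT mouse embryonic stem cells were made with a directional kit, and the methods describe the replicates as biological duplicates. The deposited values are raw counts of reads per gene, made by the authors in an exon and an intron column from alignments to mm10. Their processing notes name STAR, SAMtools 1.10, Picard, featureCounts and DESeq2. Genes were tested with edgeR 4.0.16 (quasi-likelihood, TMM, filterByExpr, Benjamini-Hochberg) on all 10 time-course libraries. DESeq2 1.42.0 with normal shrinkage was an alternative, as were other scalings, filters, fits and single libraries left out. The call was an adjusted p under 0.05 and a log2 fold change beyond 0.5. Other comparisons used their own tables and controls, and the scripts were tested on simulated data. Named genes were those called by either tool, per column the 8 lower and 8 higher of lowest p with a log2 fold change beyond 0.5, 50 or more normalised counts and no overlap, the 10 with the lowest larger p among genes under 0.05 in both columns in the same direction, Srcap, up to 4 genes per list and 9 genes of interest. The members and lists were chosen with earlier results of these data known. Of 55401 gene IDs, 55141 matched the annotation.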

Additional observations from a re-analysis of the deposited data

How the results depend on the processing

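The simulation changed only genes above the median mean count, and many of them at once. In it edgeR recovered 24 of 100 changed by 1 on the log2 scale in the intron column. In exons it recovered 65, and the intron column also carries exon reads. All alternatives kept 0 edgeR calls at 2 h except the fit with no filter on low counts, which called 5 genes lower (Zfp790, Lars2, Zfp354c, Zscan20 and CT010467.1) and 3 higher (Gata3, Inhbb and Gsx1) in exons, and 8 lower and 5 higher in the intron column. Lars2, CT010467.1, Inhbb and Gsx1 are named after their values were seen. DESeq2 called 4 lower in exons and 10 lower and 5 higher in the intron column. On the genes that filterByExpr left, a choice made after seeing the data, it called 3 lower in exons and 11 lower and 4 higher in the intron column. After subtraction of exon from intron counts DESeq2 called 29 lower and 12 higher and edgeR 0. Nothing in the labels says that a replicate number marks a shared batch. Samples of the same number deviated together in control and 2 h (correlation 0.331 in exons and 0.414 in the intron column) and in all 6 pairs of groups without 6 h, while over all 10 pairs 6 in exons and 8 in the intron column were over 0.1, and those that were not all involve 6 h. With 2 samples per group this is a hint of pairing and was not taken as the design. Under the replicate block, 0 genes at 2 h passed in edgeR, with 792 lower and 540 higher in exons and 676 and 521 in the intron column at an unadjusted p under 0.05, and DESeq2 called 3 lower in exons and 7 lower and 6 higher in the intron column. For 6 h against 2 h, the block gave 1 higher gene in exons, and DESeq2 gave 5 lower and 8 higher in exons and 5 lower and 4 higher in the intron column. Leaving out one library at a time, where a lone sample is assumed to vary like the other groups, gave list medians of -0.34 to -0.20 for the Zfp list (exons), -0.30 to -0.18 for the Zfp list (intron), -0.25 to -0.20 for cilium (exons), -0.31 to -0.24 for cilium (intron), 0.31 to 0.77 for mesoderm and endoderm (exons), 0.41 to 0.78 for mesoderm and endoderm (intron), 0.21 to 0.36 for ectoderm (exons), 0.25 to 0.48 for ectoderm (intron), 0.18 to 0.38 for immediate early (exons) and 0.17 to 0.38 for immediate early (intron). The medians that moved by over 1.5 times were those of mesoderm and endoderm without control 1, of ectoderm (intron) without IAA2h 2 and of immediate early without control 2. Measured against each list's SD between replicates, 11 medians moved by more and 49 did not, counting also the replicate block and another scaling. The 11 include the Zfp list in exons without control 1 (-0.34, SD 0.078) and cilium in exons without IAA2h 2 (-0.25, SD 0.026). In DESeq2, whose fold changes are shrunken, the sign reversed for Meis1 (-0.073, -0.0806 with the block and -0.073 after the filter), Gata6 (-0.046, -0.045 and -0.044), Lefty2 (-0.043 and -0.040) and Trim28 (-0.0034 and -0.0066). Leaving out single libraries, log2 fold changes ran from -0.0528 to 0.88 for Lefty2, -0.30 to 0.70 for Zfp42 and -0.0527 to 0.24 for Trim28. After subtraction of exon counts the sign reversed for the intron values of Gata3 (-0.033 and -0.16), Pik3r1 (0 and -0.0276) and Trp73 (-0.0276). Pik3r1 and Trp73 had fewer intron than exon counts in all 4 libraries, so the subtraction, held at 0, left them no counts, and it left Gata3 few, which makes these values uninformative. The other values of the named genes kept their direction, the cause of the other reversals was not tested, and without the library IAA6h 2, which stands apart in mitochondrial share, edgeR still called 0.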
